A study of Mus musculus with 4 samples.

Results

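The genes described here encode the protein subunits of the mitochondrial oxidative phosphorylation machinery, complexes I to V, together with the Ndufaf assembly factors that share a symbol prefix with complex I. They were chosen by symbol: every gene whose symbol starts with Ndufa, Ndufb, Ndufc, Ndufs, Ndufv, Uqcr, Cox4i, Cox5, Cox6, Cox7, Cox8 or Atp5, plus Sdha, Sdhb, Sdhc, Sdhd and Cyc1. The rule uses no measured value, though it was set with earlier results of these data known. The rule found 94 of the 20284 named genes on the array: 36 of complex I, 4 of complex II, 9 of complex III, 20 of complex IV, 17 of complex V and 8 assembly factors. Of these, 90 were well above background on every array, and 4 (Cox7b2, Cox8b, Cox8c and Ndufa4l2) were well above background on none. The gene table holds 3 further protein-coding symbols of the rule (Ndufb1, Ndufb4b and Ndufb4c) and 19 pseudogenes that no named probe represents. Ndufa4 was counted in complex IV, where its protein is now placed. The subunits encoded by mitochondrial DNA do not fall under the rule.

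Gene expression was measured in 4 cell fractions sorted from the bone marrow of female C57BL6 mice aged 8 weeks, each on 1 one-colour Agilent array. The CD34-ckit+Sca1+Lineage- fraction represents long-term haematopoietic stem cells (LT-HSC), and the CD34+ckit+Sca1+Lineage- fraction their short-term counterparts (ST-HSC). Progenitors carry the label ckit+Lineage-. A protocol text common to all samples describes them as Sca1- and also names Lineage+ cells, so their gate is uncertain. Differentiated cells (Lin+ cells) were the Lineage+ fraction, by the markers below a mixture of blood cells of several lineages. The label does not give their stage, and 4 proliferation genes had their highest sum there (174). No mouse was treated or carried an altered allele, and the number of animals behind a fraction is not given in the sources used here. Since each fraction was measured once, the differences below could not be checked against replicates and carry no p-value. The ± after a value is the spot error computed by the scanner software. It covers at most the reading of a spot, and the variation among animals is unknown. Its median was 0.14 for a level and 0.20 for a difference. Most members had these same values on every array, so the error does not rank their precision.

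Oxidative phosphorylation is the process by which mitochondria turn the oxidation of NADH and succinate into ATP. Complexes I and II pass electrons to ubiquinone, complex III passes them on to cytochrome c, and complex IV uses them to reduce oxygen to water. Complexes I, III and IV pump protons out of the matrix, and complex V, the ATP synthase, lets them flow back and makes ATP. In bone marrow, quiescent stem cells are known for their reliance on glycolysis and for a low use of respiration, which is taken up as cells commit to differentiation, while mature red cells lose their mitochondria altogether. Many nuclear genes of the chain are known targets of the factors NRF1, GABP (an ETS family factor, also called NRF2) and YY1.

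Promoters of these genes were searched for the core letters of those factors, since the members moved together across the fractions. RefSeq promoter windows (build GRCm38.p6, 250 bases before to 50 after the gene start) matched 74 of the 90 measured members by symbol. For 5 members there was more than 1 window, and a match in any of them counted. Letters were sought on both strands. GCGCATGCG, for NRF1, overlaps its own reverse complement, and the ETS letters CCGGAAG can overlap the YY1 letters AAGATGGCG by their shared AAG. The NRF1 letters were found in 10 of the 74 members (13.5%), against 1.95% of 27025 genes with a window. ETS letters were present in 19 members (25.7%), against 9.93% of all genes. For YY1 the count was 8 members (10.8%), against 1.64%. The 27025 genes include genes that were not measured on these arrays, while the members were all measured. These shares thus compare unlike sets, and the share among measured genes was not computed. Of the 74 members, 31 held any of the 3 and 43 held none, where 12.7% of all genes with a window held any. A match is a run of letters in a window and not a shown binding site. The 4 members with both NRF1 and ETS letters are printed below, on the minus strand of chr5:108434350-108434649 (Atp5k), chr9:44920693-44920992 (Atp5l), chr5:115348909-115349208 (Cox6a1) and chr10:80406772-80407071 (Uqcr11), 5′ to 3′ along the gene, with the matched letters in capitals.
Atp5k: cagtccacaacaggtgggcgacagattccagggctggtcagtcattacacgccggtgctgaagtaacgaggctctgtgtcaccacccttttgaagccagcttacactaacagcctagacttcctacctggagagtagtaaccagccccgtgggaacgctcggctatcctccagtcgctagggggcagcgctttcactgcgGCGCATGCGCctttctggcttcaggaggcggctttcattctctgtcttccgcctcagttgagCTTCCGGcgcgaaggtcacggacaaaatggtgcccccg
Atp5l: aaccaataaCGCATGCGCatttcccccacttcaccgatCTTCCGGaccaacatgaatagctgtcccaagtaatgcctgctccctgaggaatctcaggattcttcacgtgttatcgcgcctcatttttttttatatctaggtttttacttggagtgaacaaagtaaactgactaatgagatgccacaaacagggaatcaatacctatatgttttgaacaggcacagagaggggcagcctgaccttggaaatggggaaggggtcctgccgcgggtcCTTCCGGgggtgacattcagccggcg
Cox6a1: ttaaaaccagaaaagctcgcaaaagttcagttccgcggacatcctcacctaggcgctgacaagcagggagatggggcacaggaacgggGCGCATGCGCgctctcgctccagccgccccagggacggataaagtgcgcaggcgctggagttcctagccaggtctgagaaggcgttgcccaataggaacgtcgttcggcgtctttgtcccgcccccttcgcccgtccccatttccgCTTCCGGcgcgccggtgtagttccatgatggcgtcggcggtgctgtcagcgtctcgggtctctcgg
Uqcr11: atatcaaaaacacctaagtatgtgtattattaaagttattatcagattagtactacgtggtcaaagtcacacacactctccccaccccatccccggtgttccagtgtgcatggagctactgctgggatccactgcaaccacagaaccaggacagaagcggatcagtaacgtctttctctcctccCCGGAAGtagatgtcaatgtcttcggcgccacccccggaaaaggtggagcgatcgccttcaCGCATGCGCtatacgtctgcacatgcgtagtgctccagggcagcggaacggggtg
Atp5k and Atp5l encode small membrane subunits of complex V, Cox6a1 a subunit of complex IV and Uqcr11 a small subunit of complex III. Medians of members with and without the letters were set side by side as a description. The 10 with NRF1 letters had a median difference of progenitors from ST-HSC of 0.85 and the 64 without them 0.80. For ETS letters the medians were 0.78 in the 19 with a match and 0.83 in the 55 without. For YY1 letters they were 0.73 in the 8 with a match and 0.82 in the 66 without. In Lin+ cells against progenitors the medians with and without a match were -1.0 and -1.16 for NRF1, -1.13 and -1.16 for ETS, and -1.28 and -1.14 for YY1. The 4 genes printed above were higher in progenitors than in ST-HSC by 1.71-fold (Atp5l) to 2.44-fold (Uqcr11). The median over all 90 measured members was 1.72-fold.

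All values below are log2 signal after subtracting the array's 75th percentile, called the level, or differences between 2 arrays on that scale. A gene was called higher or lower when it differed by at least 2-fold. From 40.9% to 45.9% of probes were well above background per array, and no spot was saturated. The 75th percentile was 192 intensity units in LT-HSC and 217 in ST-HSC, then 137 in progenitors and 230 in Lin+ cells. The median gene measured on both arrays was itself shifted, by 0.03 in ST-HSC against LT-HSC, 0.21 in progenitors against ST-HSC, -0.42 in Lin+ cells against progenitors and -0.21 in Lin+ cells against LT-HSC. Members are therefore also given relative to that gene. Neighbouring comparisons share an array, so that a high or low progenitor array enters 2 of them with opposite sign. Markers were summed to set the labels beside the data. The summed linear signal of 7 long-term stem cell genes was 94.7 in LT-HSC and 23.7 in ST-HSC, then 25.1 in progenitors and 2.40 in Lin+ cells. The near equal sums of ST-HSC and progenitors hide opposite changes. Of 4 of these genes that could be compared there, 2 were called higher in progenitors, among them Vwf, and 2 lower, among them Hlf. For 6 neutrophil genes the sum was 8.14 in LT-HSC and 6.99 in ST-HSC, then 178 in progenitors and 6955 in Lin+ cells. For 6 erythroid genes it was 9.10 in LT-HSC and 1.35 in ST-HSC, then 72.8 in progenitors and 4467 in Lin+ cells. In such bulk fractions, fewer cells of a type and less RNA per cell cannot be told apart.

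Subunit RNA of all 5 complexes was highest in progenitors. Of the 90 measured members, 87 peaked there, 1 in LT-HSC (Cox7a2l) and 2 in Lin+ cells (Cox6a2 and Cox7a1). Among all 10624 genes well above background on every array, 40.8% peaked in progenitors. With the median gene of each array set to 0, 86 members did, against 33.5% of all genes. The count depends on the scaling: with arrays scaled to spike-in probes, 69 members peaked in progenitors, 18 in ST-HSC and 3 in Lin+ cells, against 12.9% of all genes in progenitors. Every measured member of complexes I (36), II (4), III (9) and V (17) and every assembly factor (8) peaked in progenitors as scaled here, as did 13 of 16 in complex IV. Relative to LT-HSC, the median member stood at 0.25 in ST-HSC and 1.01 in progenitors, with -0.12 in Lin+ cells. Over genes measured on all 4 arrays, the median gene stood at 0.020 in ST-HSC and 0.07 in progenitors, with -0.25 in Lin+ cells.

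**Figure D1:**
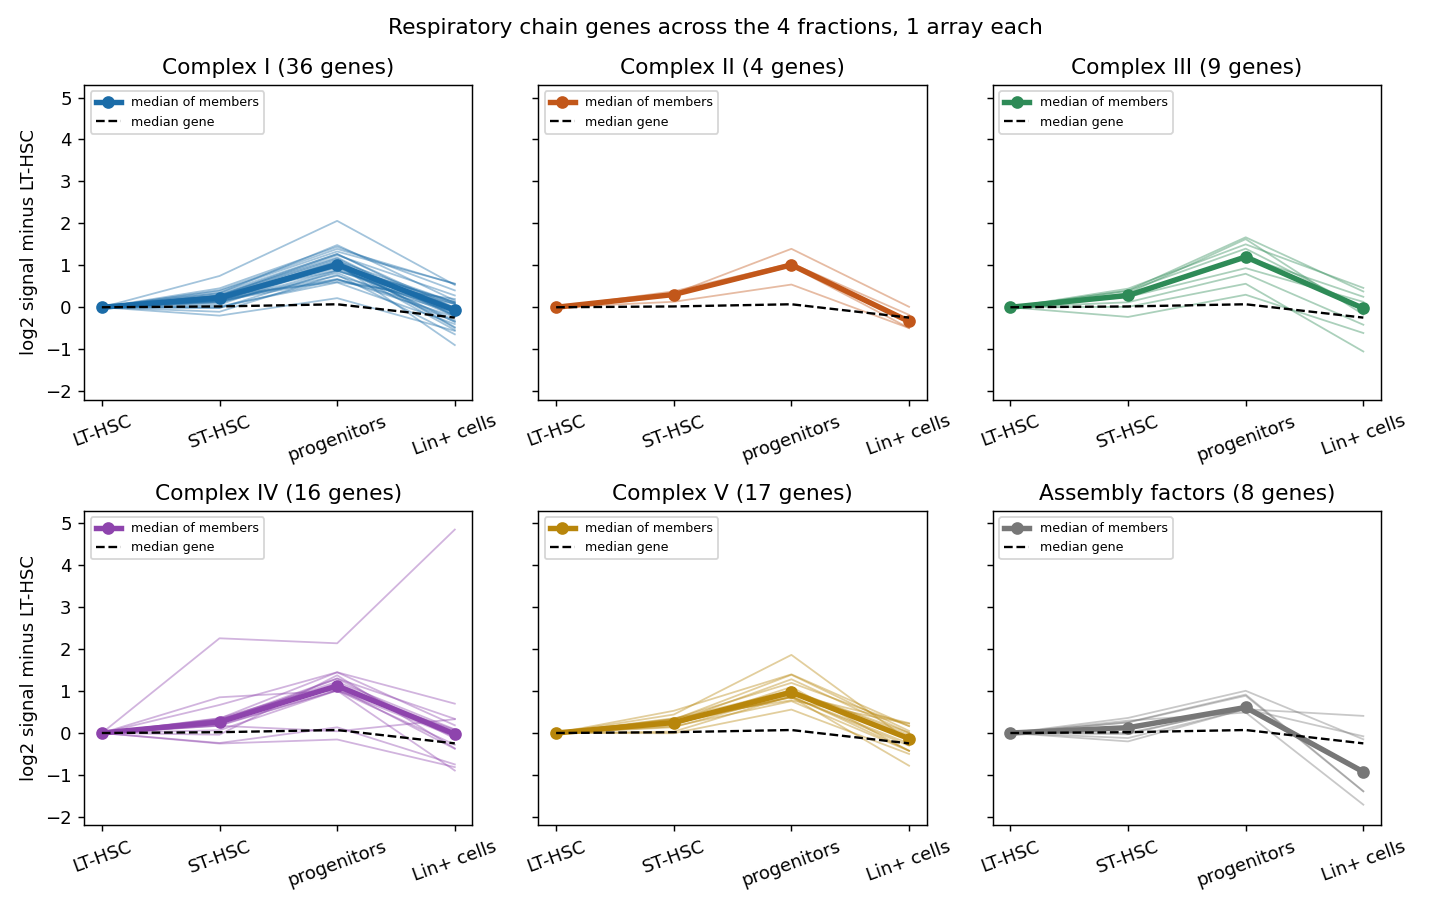
Log2 signal of each measured member minus its LT-HSC value (vertical axis) in the 4 fractions (horizontal axis, 1 array each), in 1 panel per complex and 1 for the assembly factors. Thin lines are genes, the thick line with points is their median and the black dashed line the median gene of the array. In each panel the median is highest in progenitors, and the line that leaves complex IV upward is Cox6a2.

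Few members differed by 2-fold between ST-HSC and LT-HSC. Of 90 members, 1 was called higher (Cox6a2) and 0 lower, against 5.81% of 12621 genes called higher and 9.01% called lower. Relative to the median gene the member counts were again 1 and 0, against 5.54% and 9.29% of genes. Most members were slightly higher in ST-HSC. The difference was above 0 for 78 and above that of the median gene for 75, with a median of 0.25, or 0.22 relative to the median gene. By complex the medians were 0.23 for complex I, 0.30 for II, 0.28 for III, 0.26 for IV, 0.25 for V and 0.13 for the assembly factors. Next to Cox6a2, the members furthest above 0 were Ndufa4 at 0.85 ± 0.20, Ndufab1 at 0.75 ± 0.21 and Cox5a at 0.67 ± 0.20. Markers moved in the same comparison: the summed linear signal of 4 proliferation genes was 79.2 in ST-HSC, against 13.7 in LT-HSC, and 5 of 5 granulocyte-monocyte progenitor genes were called higher (a sum of 1494 in ST-HSC, against 130 in LT-HSC). Megakaryocyte genes were called lower for 4 of 4, with a sum of 12.3 in ST-HSC, against 108 in LT-HSC. The part of these markers in the member differences was not tested.

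Progenitors showed more subunit RNA than ST-HSC in every complex. Of 90 members, 14 were called higher and 0 lower, against 10.0% of 12614 genes called higher and 10.2% called lower. The difference was above 0 for 88 members, with a median of 0.78, a fold of 1.72. With arrays scaled to spike-in probes, 0 members were called higher and the median was 0.17. Relative to the median gene the median was 0.58, and 5 members were called higher and 0 lower, against 6.85% and 13.8% of genes. The count of 2-fold calls is thus close to the background, while the members as a group lay 0.58 above the median gene with little spread. Their middle 50% ran between 0.63 and 0.92, and for all genes measured on both arrays between -0.33 and 0.59. At 1.5-fold, 73 members were higher, against 26.0% of genes. At that threshold, the ST-HSC comparison with LT-HSC gave 4 higher members, against 13.4% of genes. Markers of maturing cells moved with this comparison too. All 6 neutrophil, 6 erythroid, 4 megakaryocyte and 5 granulocyte-monocyte progenitor genes were called higher in progenitors, and the last list summed to 5084 in progenitors, against 1494 in ST-HSC. Proliferation genes ran the other way, with a sum of 49.8 in progenitors and 79.2 in ST-HSC. Their part in the member differences was not tested.

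Complex III had the highest median in this comparison, 0.92, followed by complex I (0.84), IV (0.83), V (0.78) and II (0.68) and the assembly factors (0.65). Every complex median lay within 0.14 of the median of all members, and whether the complexes differed was not tested. The 14 called members were Ndufab1 and Ndufs6 in complex I, Sdhd in II, Cyc1, Uqcr10, Uqcr11 and Uqcrq in III, Cox5b, Cox6a1, Cox6b2 and Cox7a2 in IV, and Atp5g1, Atp5g3 and Atp5k in V. Atp5g1 was furthest apart, with a level of 9.15 in progenitors and 7.73 in ST-HSC, a difference of 1.42 ± 0.20. After centring, Ndufab1, Uqcr11, Uqcrq, Cox6b2 and Atp5g1 remained at least 2-fold higher.

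Lin+ cells had less subunit RNA than progenitors. Here 60 of 90 members were called lower and 1 higher (Cox6a2), against 26.4% of 12990 genes called lower and 14.5% called higher. The median difference was -1.14, a fold of 0.455. The difference was below 0 for 88 members and below that of the median gene for 86. Relative to the median gene the median was -0.72, and 21 members were called lower and 1 higher, against 14.1% and 21.3% of genes. The called members made up 20 of 36 in complex I, 4 of 4 in II, 6 of 9 in III, 9 of 16 in IV, 15 of 17 in V and 6 of 8 assembly factors. After centring on the median gene they made up 5 of 36 in complex I, 1 of 4 in II, 3 of 9 in III, 4 of 16 in IV, 3 of 17 in V and 5 of 8 assembly factors. The shares of complexes V and I then lay closer together. Medians were -1.04 in complex I, -1.30 in II, -1.22 in III, -1.12 in IV, -1.16 in V and -1.54 in the assembly factors. Structural complexes again lay within 0.17 of the median of all members, and the assembly factors 0.40 below it. Markers of several cell types moved with this comparison. All 6 neutrophil genes and all 5 B cell genes were called higher in Lin+ cells, 4 of 6 erythroid genes were, and the summed B cell signal was 361 in Lin+ cells against 20.9 in progenitors. Proliferation genes were called higher for 3 of 4 (a sum of 174 in Lin+ cells, against 49.8 in progenitors). Megakaryocyte genes were called lower for 4 of 4 (8.48 in Lin+ cells, against 257 in progenitors) and granulocyte-monocyte progenitor genes for 4 of 5. The part of this difference in cell types in the member differences was not tested.

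Set against LT-HSC, Lin+ cells differed little in subunit RNA on these arrays. Of 90 members, 4 were called lower (Uqcrb, Ndufaf2, Ndufaf4 and Ndufaf6) and 1 higher (Cox6a2), against 23.2% of 13285 genes called lower and 16.1% called higher. The median difference was -0.12, and 0.090 relative to the median gene, so its sign depends on the scaling. Relative to the median gene, 3 members were called lower and 1 higher, against 18.6% and 19.5% of genes. At 1.5-fold, 13 members were lower and 2 higher, against 35.0% and 23.9%. The middle 50% of members ran between -0.42 and 0.12, and that of all genes measured on both arrays between -0.86 and 0.45. Complex medians were -0.07 for I, -0.34 for II, -0.03 for III, -0.03 for IV and -0.13 for V, all within 0.22 of the median of all members. The assembly factors stood apart from the structural subunits at -0.93.

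**Figure D2:**
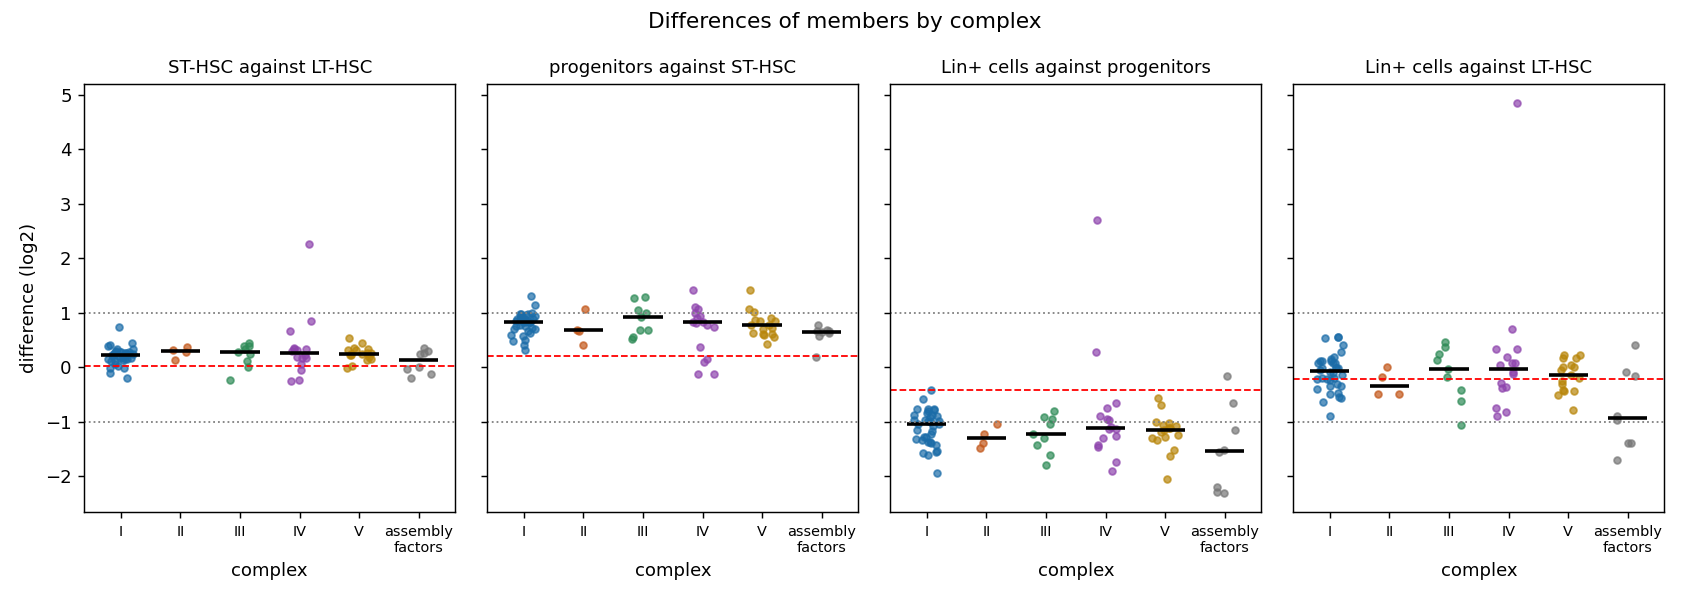
Difference of each measured member on the log2 scale (vertical axis) by complex and for the assembly factors (horizontal axis), in 1 panel per comparison. Points are genes, spread sideways to be seen, black bars are medians, grey dotted lines mark a 2-fold difference and the red dashed line is the median gene measured on both arrays. The medians of the complexes lie close together in each panel, Cox6a2 is the high point of complex IV, and the assembly factors lie lowest in both Lin+ panels.

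Complex I, NADH dehydrogenase, has a matrix arm, whose N module takes electrons from NADH and whose Q module hands them to ubiquinone, and a membrane arm that pumps protons. Its modules shared the profile. In Lin+ cells against progenitors the medians were -1.01 for 8 N module genes, -1.20 for 8 Q module genes, -0.99 for 9 genes of the proximal and -1.28 for 11 genes of the distal membrane arm. Against LT-HSC they were 0.08 for the N module, -0.33 for the Q module, -0.01 for the proximal and -0.05 for the distal arm. Ndufs4, an accessory subunit of the N module, gave 4.81 in LT-HSC and 4.95 in ST-HSC, then 5.46 in progenitors and 4.89 in Lin+ cells.

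Ndufa12, an accessory subunit that joins the N module late, lay at the other end. Its level was 6.43 in LT-HSC and 6.63 in ST-HSC, then 7.46 in progenitors and 5.52 in Lin+ cells, which made it 1.94 ± 0.20 lower in Lin+ cells than in progenitors on the log2 scale and the lowest of the complex against LT-HSC as well (-0.90 ± 0.20). Ndufb2 and Ndufa5 followed in Lin+ cells against progenitors, at -1.61 ± 0.20 and -1.58 ± 0.20. Ndufb2, of the membrane arm, gave 5.18 in LT-HSC and 5.44 in ST-HSC, then 6.32 in progenitors and 4.71 in Lin+ cells, and Ndufa5, of the Q module, gave 6.26 in LT-HSC and 6.49 in ST-HSC, then 7.35 in progenitors and 5.77 in Lin+ cells. Against LT-HSC the next lowest were Ndufs7, which carries the iron-sulphur cluster nearest to ubiquinone, at -0.64 ± 0.20 and Ndufa6 at -0.56 ± 0.20. Ndufs7 had 6.72 in LT-HSC and 6.62 in ST-HSC, then 7.50 in progenitors and 6.08 in Lin+ cells, and Ndufa6 gave 6.01 in LT-HSC and 5.81 in ST-HSC, then 6.23 in progenitors and 5.45 in Lin+ cells. The highest were Ndufb7 at 0.56, Ndufa1 at 0.56 and Ndufab1 at 0.53. The membrane arm genes Ndufb7 (6.65 in LT-HSC and 7.04 in ST-HSC, then 7.98 in progenitors and 7.21 in Lin+ cells) and Ndufa1 (5.96 in LT-HSC and 6.37 in ST-HSC, then 7.36 in progenitors and 6.52 in Lin+ cells) thus stayed above their LT-HSC level in Lin+ cells. Ndufab1, the mitochondrial acyl carrier protein, also serves fatty acid synthesis in mitochondria. Of the complex it had the largest difference between progenitors and LT-HSC, with 0.75 in LT-HSC and 1.5 in ST-HSC, then 2.81 in progenitors and 1.28 in Lin+ cells.

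Complex II, succinate dehydrogenase, works in the respiratory chain and in the tricarboxylic acid cycle. All 4 genes were lower in Lin+ cells than in progenitors by at least 2-fold, and 1 of the 4 was relative to the median gene. The catalytic flavoprotein gene Sdha gave 5.20 in LT-HSC and 5.34 in ST-HSC, then 5.75 in progenitors and 4.71 in Lin+ cells. Sdhb, the iron-sulphur subunit, gave 6.72 in LT-HSC and 7.10 in ST-HSC, then 7.76 in progenitors and 6.54 in Lin+ cells. The membrane anchors Sdhc and Sdhd had 4.31 and 5.36 in LT-HSC, 4.59 and 5.69 in ST-HSC, 5.28 and 6.75 in progenitors, and 3.81 and 5.37 in Lin+ cells. Sdhd was the 1 of the 4 called higher in progenitors than in ST-HSC (1.07 ± 0.20), while Sdha was nearest to the median gene there (0.41 ± 0.20). Against LT-HSC, Sdha and Sdhc were lower in Lin+ cells by the same amount (-0.50 ± 0.20 each) and Sdhd differed by 0.01.

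Complex III, the cytochrome bc1 complex, has core subunits that carry electrons or hold the complex together and small accessory subunits. Cyc1, which encodes the haem-bearing cytochrome c1, had levels of 5.01 in LT-HSC and 5.46 in ST-HSC, then 6.51 in progenitors and 5.47 in Lin+ cells. Against LT-HSC it was the highest of the complex in Lin+ cells (0.46 ± 0.20), followed by the accessory Uqcrq (0.38) and the core protein gene Uqcrc1 (0.25). Along the fractions Uqcrq gave 6.85 in LT-HSC and 7.25 in ST-HSC, then 8.52 in progenitors and 7.23 in Lin+ cells and Uqcrc1 gave 4.43 in LT-HSC and 4.72 in ST-HSC, then 5.63 in progenitors and 4.68 in Lin+ cells. The Rieske iron-sulphur protein gene Uqcrfs1 was least lower in Lin+ cells than in progenitors (-0.80 ± 0.20), with levels of 5.23 in Lin+ cells and 6.03 in progenitors. The 4 core genes had a median of -1.0 in that comparison and the 5 accessory genes -1.42.

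Among the accessory genes Uqcr11, whose promoter is printed above, had the sharpest profile, with 6.87 in LT-HSC and 7.20 in ST-HSC, then 8.49 in progenitors and 6.69 in Lin+ cells. It was 1.29 ± 0.20 higher in progenitors than in ST-HSC and differed by -1.80 ± 0.20 between Lin+ cells and progenitors. Uqcr10 differed by -1.42 in the second of these. Uqcrb, known as the ubiquinone-binding protein, gave 6.52 in LT-HSC and 6.53 in ST-HSC, then 7.08 in progenitors and 5.47 in Lin+ cells and was the only structural subunit of any complex called lower in Lin+ cells than in LT-HSC. Its 3 probes placed that difference between -1.55 and -0.80, and 1 of them lay under 2-fold. It was not called relative to the median gene. Uqcrh, the hinge protein gene, was lower in ST-HSC than in LT-HSC (-0.23 ± 0.20) and in Lin+ cells than in LT-HSC (-0.61 ± 0.20). Its levels were 8.25 in LT-HSC and 8.02 in ST-HSC, then 8.55 in progenitors and 7.64 in Lin+ cells. The core protein gene Uqcrc2 gave 5.53 in LT-HSC and 5.65 in ST-HSC, then 6.33 in progenitors and 5.11 in Lin+ cells and differed by -0.42 ± 0.07 between Lin+ cells and LT-HSC.

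Complex IV, cytochrome c oxidase, is the only complex with several subunits in alternative isoforms, a ubiquitous form and others restricted to tissues such as heart, muscle, lung or testis. The 11 ubiquitous genes behaved as the other complexes did, with medians of 0.32 in ST-HSC against LT-HSC, 0.84 in progenitors against ST-HSC, -1.13 in Lin+ cells against progenitors and 0.04 in Lin+ cells against LT-HSC. The 5 measured isoforms and relatives had medians of -0.04, 0.10, -0.66 and -0.37 in the same comparisons, with values that ran both ways. The isoform genes Cox7b2, Cox8b and Cox8c and the Ndufa4 relative Ndufa4l2, which is known to respond to hypoxia, were not well above background in any fraction.

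Cox6a2, the heart and skeletal muscle isoform of subunit 6a, was the exception among all 90 members. Its level was -0.63 ± 0.17 in LT-HSC and 1.63 ± 0.14 in ST-HSC, then 1.51 ± 0.15 in progenitors and 4.22 ± 0.14 in Lin+ cells. It was thus low in the long-term stem cells, level between ST-HSC and progenitors and high in differentiated cells. The differences were 2.26 ± 0.22 for ST-HSC against LT-HSC, -0.12 ± 0.21 for progenitors against ST-HSC and 2.71 ± 0.20 for Lin+ cells against progenitors, and Lin+ cells stood 28.8-fold above LT-HSC. Its ubiquitous partner Cox6a1 followed the other members, with 8.77 in LT-HSC and 9.11 in ST-HSC, then 10.22 in progenitors and 9.47 in Lin+ cells, and was the highest of the ubiquitous genes in Lin+ cells against LT-HSC (0.70 ± 0.20). Cox6a2 was read by 1 probe, whose specificity was not examined.

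**Figure D3:**
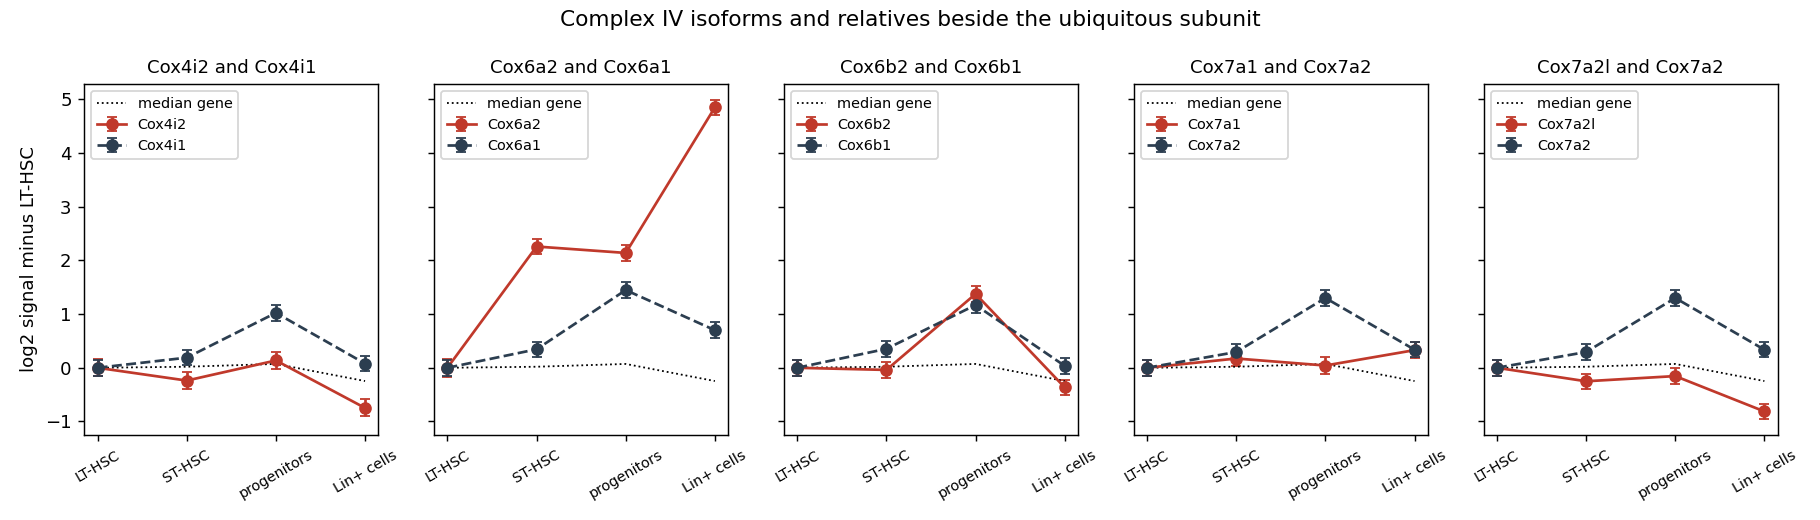
Log2 signal minus the LT-HSC value (vertical axis) of complex IV isoforms and relatives (red, solid) and of the ubiquitous subunit (dark, dashed) in the 4 fractions (horizontal axis, 1 array each), with spot errors as bars and the median gene dotted. Cox6a2 stands 4.85 above LT-HSC in Lin+ cells, Cox6b2 follows Cox6b1, and Cox7a1 and Cox7a2l lack the progenitor peak of Cox7a2.

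The other pairs differed less. Cox6b2, known as the testis isoform of subunit 6b, kept the progenitor peak, with 3.11 in LT-HSC and 3.07 in ST-HSC, then 4.48 in progenitors and 2.74 in Lin+ cells. Its step between progenitors and ST-HSC was 1.42 ± 0.20, against 0.82 ± 0.20 for Cox6b1, which gave 4.11 in LT-HSC and 4.47 in ST-HSC, then 5.28 in progenitors and 4.15 in Lin+ cells. Cox7a1, the heart and muscle isoform, was almost level at 0.22 in LT-HSC and 0.39 in ST-HSC, then 0.26 in progenitors and 0.55 in Lin+ cells, while the ubiquitous Cox7a2 gave 5.90 in LT-HSC and 6.20 in ST-HSC, then 7.20 in progenitors and 6.24 in Lin+ cells. Cox4i2, the lung isoform known to respond to low oxygen, had -0.15 in LT-HSC and -0.39 in ST-HSC, then -0.02 in progenitors and -0.90 in Lin+ cells. It differed by -0.75 ± 0.22 between Lin+ cells and LT-HSC, where Cox4i1 differed by 0.08 ± 0.20, with levels of 7.99 in Lin+ cells and 7.91 in LT-HSC. Cox7a2l, which encodes a factor of respiratory supercomplexes related to subunit 7a, was the 1 member highest in LT-HSC as scaled here. Its levels were 8.50 in LT-HSC and 8.25 in ST-HSC, then 8.35 in progenitors and 7.69 in Lin+ cells, a difference of -0.81 ± 0.20 between Lin+ cells and LT-HSC. Its LT-HSC and progenitor levels lay closer than the error of a difference (0.20). With spike-in scaling 0 members were highest in LT-HSC, and with quantile normalization 5 were.

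A pair of further complex IV genes left the common profile in the stem cell step. Ndufa4 gave 6.13 in LT-HSC and 6.98 in ST-HSC, then 7.14 in progenitors and 5.24 in Lin+ cells. Its increase lay between LT-HSC and ST-HSC (0.85 ± 0.20) rather than between ST-HSC and progenitors (0.16 ± 0.20), and it was the lowest of complex IV in both Lin+ comparisons (-1.91 and -0.89, ± 0.20). Cox5a, a subunit on the matrix side, gave 7.44 in LT-HSC and 8.11 in ST-HSC, then 8.89 in progenitors and 7.62 in Lin+ cells, with steps of 0.67 and 0.78. Cox7b came after Ndufa4 and Cox6b2 in Lin+ cells against progenitors, at -1.45 ± 0.20, with levels of 6.77 in LT-HSC and 7.10 in ST-HSC, then 7.85 in progenitors and 6.39 in Lin+ cells.

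Complex V, the ATP synthase, consists of the catalytic F1 head, a rotating ring of c subunits in the membrane, a peripheral stalk that holds the head still and further membrane subunits. The 3 genes Atp5g1, Atp5g2 and Atp5g3 encode the same mature c subunit with different import sequences. Atp5g1 had 7.29 in LT-HSC and 7.73 in ST-HSC, then 9.15 in progenitors and 7.10 in Lin+ cells, with Cox6b2 the largest step of the members into progenitors, and the lowest difference of complex V in Lin+ cells against progenitors (-2.05 ± 0.20). Atp5g2 gave 8.86 in LT-HSC and 9.13 in ST-HSC, then 9.71 in progenitors and 8.08 in Lin+ cells, so that it was the lowest of the complex in Lin+ cells against LT-HSC (-0.78 ± 0.20). Atp5g3 returned to its LT-HSC level, with 7.36 in LT-HSC and 7.62 in ST-HSC, then 8.64 in progenitors and 7.36 in Lin+ cells.

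The peripheral stalk genes differed among themselves in Lin+ cells. The stalk genes Atp5pb and Atp5h differed by -0.56 ± 0.20 and -0.69 ± 0.20 from progenitors, and they were the highest of the complex against LT-HSC (0.22 and 0.24). Atp5pb had 5.06 in LT-HSC and 5.41 in ST-HSC, then 5.84 in progenitors and 5.28 in Lin+ cells, and Atp5h gave 7.71 in LT-HSC and 7.84 in ST-HSC, then 8.63 in progenitors and 7.94 in Lin+ cells. Atp5j, also of the stalk, was second lowest against LT-HSC (-0.50 ± 0.20), so that the 4 stalk genes did not share a direction. Its levels were 6.08 in LT-HSC and 6.08 in ST-HSC, then 6.64 in progenitors and 5.58 in Lin+ cells. Atp5o, the stalk gene that meets the head, differed by -1.24 ± 0.20 from progenitors, below every gene of the F1 head. Medians in Lin+ cells against progenitors were -0.87 for the stalk, -1.11 for 5 genes of the F1 head, -1.63 for the c ring and -1.30 for 5 other membrane subunits. In the head, the catalytic subunit gene Atp5b gave 8.06 in LT-HSC and 8.40 in ST-HSC, then 9.26 in progenitors and 8.23 in Lin+ cells and its partner Atp5a1 gave 7.17 in LT-HSC and 7.40 in ST-HSC, then 8.02 in progenitors and 6.87 in Lin+ cells. Atp5mpl, a small membrane subunit, differed by -1.52 ± 0.20 from progenitors and by -0.43 ± 0.20 from LT-HSC in Lin+ cells.

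The Ndufaf proteins help to build complex I and are not part of the finished enzyme. Their RNA was lower in Lin+ cells than in LT-HSC for 7 of 8, where 7369 of 13285 genes were lower. Of the 8, 3 were called lower, against 23.2% of genes. Relative to the median gene, 5 were lower and 3 higher, and 3 were called lower, against 18.6% of genes. Ndufaf2, a chaperone of a late assembly stage, had 3.08 in LT-HSC and 3.37 in ST-HSC, then 3.57 in progenitors and 1.37 in Lin+ cells, a difference of -1.71 ± 0.20 between Lin+ cells and LT-HSC. Ndufaf4 gave 2.89 in LT-HSC and 3.15 in ST-HSC, then 3.81 in progenitors and 1.5 in Lin+ cells, and Ndufaf6 gave 1.96 in LT-HSC and 2.21 in ST-HSC, then 2.84 in progenitors and 0.56 in Lin+ cells, each -1.39 in that comparison. The 2 probes of Ndufaf4 agreed for Lin+ cells against LT-HSC (-1.39 and -1.32) and disagreed for progenitors against ST-HSC (0.66 and -0.47). Ndufaf3 went the other way, with 2.40 in Lin+ cells and 1.99 in LT-HSC. Of 34 other assembly factors, of all 5 complexes, 10 were called lower and 0 higher in Lin+ cells against LT-HSC, a share near the 23.2% of all genes called lower. After centring, 5 of the 34 were called lower and 1 higher, against 18.6% and 19.5% of all genes. Their median was -0.56, or -0.35 relative to the median gene, and the lowest was Sco2, a copper chaperone of complex IV, at -2.09 ± 0.20.

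Probes of the same gene lay close together for most genes. Of 23 members with several measured probes, 20 had probes within 0.3 of each other in ST-HSC against LT-HSC, 19 in progenitors against ST-HSC, 17 in Lin+ cells against progenitors and 20 in Lin+ cells against LT-HSC. Probes of a gene had opposite signs for 3, 2, 0 and 5 genes in the same comparisons.

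Other genes of mitochondrial energy metabolism were described with lists. In progenitors against ST-HSC, 7 of 23 genes for protein import and inner membrane organisation were called higher and 0 lower (median 0.85), against 10.0% of all genes called higher, and relative to the median gene 1 was. The list was led by Tomm40, the import pore, at 1.23 ± 0.20 and Phb, prohibitin, at 1.18 ± 0.20. Cycs, cytochrome c itself, was higher by 1.01 ± 0.20. Of 18 tricarboxylic acid cycle genes 2 were called higher, Pcx (1.05) and Mdh2 (1.03), and of 34 assembly factors 2 were, Coa5 (1.29) and Coa7 (1.22). These counts are near or below the background, and relative to the median gene 0 cycle genes and 2 assembly factors were called higher. None of 19 genes for mitochondrial biogenesis and expression of mitochondrial DNA was called in either direction (median 0.37), and relative to the median gene 1 was called lower.

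In Lin+ cells against progenitors the import list was lowest, with 18 of 23 genes called lower and a median of -1.51, against -1.14 for the members and 26.4% of all genes called lower. Relative to the median gene, where 14.1% of all genes were called lower, the counts were 14 of 23 for import, 9 of 34 for assembly factors, 5 of 18 for the cycle, 6 of 19 for biogenesis and 4 of 10 for carriers. Timm9 and Timm8a1, small chaperones of import, differed by -2.37 ± 0.20 and -2.24 ± 0.20, Phb by -2.23 ± 0.20 and the chaperonin gene Hspe1 by -2.21 ± 0.20. Called lower were 24 of 34 assembly factors (Sco2 by -2.63 ± 0.20), 9 of 18 cycle genes (Idh2 by -2.18 ± 0.20, Fh1 by -1.69 ± 0.20) and 10 of 19 biogenesis genes (Top1mt by -2.39 ± 0.21, Polrmt, the mitochondrial RNA polymerase, by -1.73 ± 0.20). In the list of electron carriers, nucleotide carriers and uncouplers, 6 of 10 were called lower, among them Dhodh (-2.25 ± 0.20) and the ADP/ATP carrier Slc25a4 (-1.80 ± 0.06). The 2 called higher were Ucp2 and Ucp3, the uncoupling protein genes, each by 1.83 ± 0.20. They are neighbours in the genome with nearly equal values, and whether their probes read separate RNAs was not examined. Pcx, pyruvate carboxylase, was the 1 cycle gene called higher (1.59 ± 0.20). Against LT-HSC, Pcx was higher in Lin+ cells by 2.90 ± 0.21 and Ucp2 by 2.61 ± 0.20, while Pdk2 and Pdk1, kinases that hold pyruvate back from the cycle, differed by -2.14 ± 0.21 and -1.36 ± 0.21.

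Members are short, bright genes, and differences varied with both properties. The measured members had a median genomic span of 7.23 kb, against 20.6 kb for all genes measured on every array. Of the 90, 40 fell among the shortest 20% and 61 among the brightest 10% of genes. For progenitors against ST-HSC the median of all genes was 0.43 in the shortest of 5 groups by span and -0.14 in the longest, and that of members 0.88 and 0.35. For Lin+ cells against progenitors all genes gave -0.65 in the shortest group and -0.09 in the longest. The brightest of 5 groups by signal had a median of 0.48 in progenitors against ST-HSC, where it held 74 members with a median of 0.83. With the median of genes of like signal and span subtracted, the members' median was 0.28 in progenitors against ST-HSC and -0.32 in Lin+ cells against progenitors. Its direction was kept at a smaller size.

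**Figure D4:**
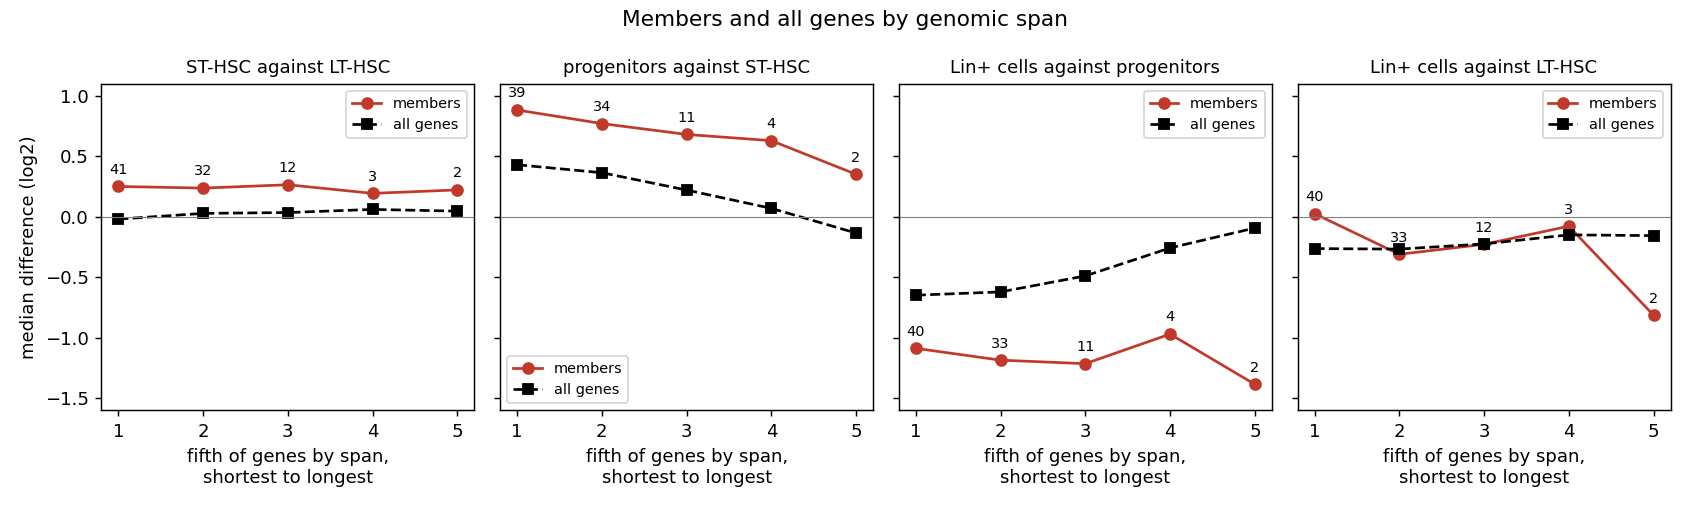
Median difference on the log2 scale (vertical axis) of members (red) and of all genes measured on both arrays (black, dashed) in 5 equal groups of genes from the shortest to the longest genomic span (horizontal axis), in 1 panel per comparison. Numbers are the members in a group, and the longest groups hold 2 to 4 of them. Members lie above all genes in every group for progenitors against ST-HSC and below them in every group for Lin+ cells against progenitors.

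**Figure D5:**
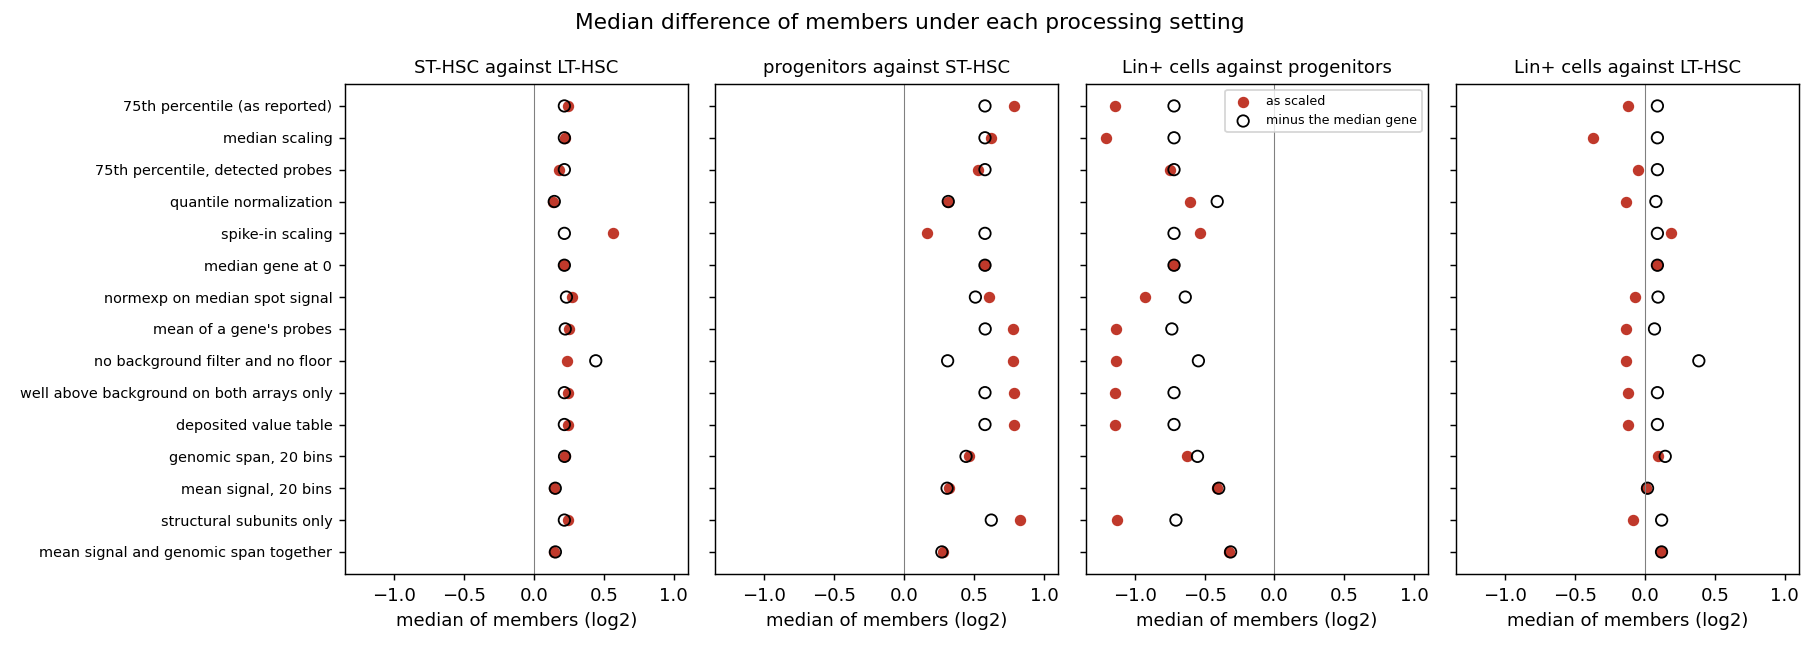
Median difference of the measured members on the log2 scale (horizontal axis) under each processing setting (rows), in 1 panel per comparison. Red points are the values as scaled and open circles the same after subtracting the median gene. The first 3 comparisons keep their direction in every row, and the red points of Lin+ cells against LT-HSC lie on both sides of 0.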

How the data were processed

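RNA of each of the 4 fractions was hybridised in the Cy3 channel of 1 Agilent array. The deposited scanner files give linear intensity per spot. Per the file headers, background had already been subtracted from the processed signal. Agilent Feature Extraction 10.7.1.1 made these files, per the submitters' processing notes. The deposited value table is a linear ratio. Its values were the processed signal over an array constant, within 1% for 100% of 55246 probes with a single spot, and had column medians of 0.0619, 0.0630, 0.0704 and 0.0738. It served as an alternative. The array design uses build mm9.

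Control spots and outlier-flagged spots were left out, spots of a probe were averaged as log2 processed signal, and each array's 75th percentile was subtracted. A probe counted as well above background when the majority of its spots were flagged so. Otherwise its value was raised to the array's lowest well-above-background value where it lay below that. Accessions were named through the RefSeq table of GRCm38.p6, which named 26762 of 55678 probes, and the brightest probe stood for a gene. Calls needed 1 side well above background and bounds were included. All values of the 90 measured members were measured on both sides.

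The members, complexes, gene lists and comparisons were chosen with earlier results of these data known. Any member could be named. Named with values were the Sdh genes and Cyc1, the 3 highest and 3 lowest members of complexes I, III, IV and V in each Lin+ comparison, isoform pairs, the c subunit genes, members called against the majority, members above background on no array, and up to 4 called genes of a list. Others, such as Ndufaf3, were added after their values were seen. A member that the rule names is not reported here.

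Alternatives were other scalings, quantile normalization and normexp background correction in limma 3.58.1 (R 4.3.3, offset 50, on median spot signal, the files used here having no mean signal column), other probe and background rules, and subtraction of medians by genomic span or signal. The number of arrays limits the precision.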

Additional observations from a re-analysis of the deposited data

How the results depend on the processing

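No paired analysis was possible because each fraction has 1 array, all labelled replicate 1, and leaving out an array would leave no comparison. Across 15 alternative settings and 519 values, 461 were labelled the same and 58 moved. Some of these values could not move. The deposited table has nearly the same scaling as the reported setting. Requiring both arrays well above background leaves the measured members unchanged. Settings that only shift whole arrays leave relative medians and complex offsets unchanged. The 461 thus overstate the stability. A count was the same within 1.5-fold of the reported one, and moved if only 1 of the 2 was 0. A median was the same when it lay within the error of a difference (0.20) of the reported one, so a moved median could keep its sign. The medians of single complexes relative to all members moved by less than that error, which is wider than most of these offsets, and some changed sign, such as complex I in progenitors against ST-HSC (0.05 as reported, -0.018 with quantile normalization). For ST-HSC against LT-HSC, spike-in scaling gave 3 members called higher and a median of 0.57, a 1.5-fold threshold gave 4 higher, and with no background filter and no floor the median relative to the median gene was 0.44.

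For progenitors against ST-HSC (14 higher, median 0.78), 5 members were called higher with median scaling, with the percentile over detected probes (median 0.53), with the median gene at 0 (median 0.58) and with normexp. Quantile normalization gave 2 (median 0.32, also relative to the median gene), spike-in scaling 0 (median 0.17), and a 1.5-fold threshold 73. Subtracting the median of genes of like span gave 1 (median 0.46) and of like signal 2 (median 0.32, or 0.31 relative to the median gene). Both together, an alternative chosen after seeing the data, gave 1 (median 0.28, or 0.27 relative to the median gene). With no floor the relative median was 0.31.

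For Lin+ cells against progenitors (60 lower, median -1.14) the counts called lower and medians were 22 and -0.75 with the percentile over detected probes, 13 and -0.61 with quantile normalization (-0.41 relative to the median gene), 11 and -0.53 with spike-in scaling, 21 and -0.72 with the median gene at 0, and 39 and -0.93 with normexp. They were 15 and -0.63 for span, 9 and -0.41 for signal (-0.40 relative to the median gene), and 6 and -0.32 for both together (-0.31 relative to the median gene). For Lin+ cells against LT-HSC (4 lower, 1 higher, median -0.12) median scaling gave 11 lower and -0.37. Quantile normalization gave 2 higher, spike-in scaling 2 higher and 0.19, the median gene at 0 a median of 0.090, span 0.094, and span with signal 2 higher, 2 lower and 0.12. Structural subunits alone gave 1 lower, a 1.5-fold threshold 2 higher and 13 lower, and no floor a relative median of 0.39. The median of this comparison as scaled thus changed sign and the cause was not tested. Relative to the median gene it lay between 0.020 and 0.39. Settings that only shift whole arrays cannot change this relative value, so its sign under them carries no information. The 0.39 came with no background filter. There, as in the other comparisons, the median gene was taken over all named genes, also those not above background.

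The number of members highest in progenitors, examined under 7 further settings after seeing the data, ran between 69 (spike-in scaling) and 86, with 75 under quantile normalization. With a single array per fraction, a progenitor array that was high or low as a whole would move the middle comparisons together, and the spike-in values show how far the scaling alone can move them.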

Other observations

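Values that belong to no comparison of the members came from the list of pyruvate dehydrogenase kinases and genes linked to low oxygen. Hif1a, the hypoxia-inducible factor gene, was higher in Lin+ cells than in LT-HSC by 1.00 ± 0.21, and 3 of 8 compared genes of that list were called lower, against 23.2% of all genes. No explanation of these values was examined.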
